A study of Mus musculus with 16 samples.

Results

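The genes described here are 39 interferon-stimulated genes of the mouse, measured in gonadal white adipose tissue, a fat depot beside the testis and epididymis, of fasted and fed male mice. They are a list of symbols, with no threshold on a measured value, drawn up with earlier results of these data known, and fall into 27 genes of the type I interferon signature and 12 interferon-inducible GTPases (7 guanylate-binding proteins and 5 immunity-related GTPases). Of the 39 genes, 34 had a probe set annotated to that symbol alone, 24 of the signature and 10 GTPases, out of 22180 genes measured in the same way. Oas1a, Dtx3l, Gbp2 and Tgtp1 had only probe sets shared with another gene, Ifi44 had none listed, and these 5 are not analysed here.

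The study asked which transcripts change in fat when food is withdrawn. Per the labels, 8 samples came from male C57BL/6 mice fasted for 16 hours and 8 from male C57BL/6 mice with free access to food, all 3 to 4 months old, with tissue taken in the morning and no allele or agent other than the diet given. Each sample was hybridised to 1 Affymetrix whole-transcript array, and the deposited values are log2 signals from RMA, which the submitters' processing notes name and which gives all arrays 1 shared distribution, so changes are relative to the other transcripts of an array. The labels do not say that every sample came from its own mouse, so the spread behind each p-value is that between samples and may be technical. The number of arrays limits the precision.

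Interferons are secreted when a cell senses foreign or misplaced nucleic acid. Type I interferons, which bind the receptor of Ifnar1 and Ifnar2, act through a complex that holds Stat2 and Irf9 and binds a promoter element called ISRE and switches on antiviral effectors such as Isg15, the Ifit and Oas families and Mx1. Interferon gamma, which binds Ifngr1 and Ifngr2, acts mainly through an element called GAS and strongly raises the guanylate-binding proteins and immunity-related GTPases, which gather on the vacuoles of intracellular bacteria and parasites. In fat, macrophages, endothelial cells and adipocytes can all respond to interferons, so a whole-tissue array reads a mixture of sources.

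The promoters shown are those of 3 GTPases called lower, of the uncalled Irgm1 and Isg15, and of Isg20 and Trim25, the members called higher, so that their letters can be set beside the values. RefSeq windows from 250 bases before to 50 bases after a gene's start (build GRCm38.p6) matched 28 of the 39 symbols, and a gene with several windows was counted once. Both strands were searched for an ISRE-like motif, GAAA and GAAA again after any 2 bases, and for a GAS-like motif, TTCNNNGAA, which reads the same on both strands. The ISRE-like motif was found in 18 of the 28 promoters (64.3%), against 3.99% of all 27025 genes with a window, and the GAS-like motif in 10 (35.7%), against 9.55% of all genes. All 8 GTPases with a window, Gbp2, Gbp3, Gbp5, Gbp7, Igtp, Irgm1, Irgm2 and Tgtp1, held the ISRE-like motif and 5 of them also the GAS-like one. Of the 20 signature genes with a window, 10 held the ISRE-like motif and 5 the GAS-like one. These are matches of letters in a window, and binding was not measured here.

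The sequences below run 5′ to 3′ on the gene's own strand and stop at the base before the first annotated base of the gene. Capitals mark the motif matches. They are, on GRCm38.p6, Gbp5 at chr3:142496684-142496933 (plus strand), Gbp3 at chr3:142559794-142560015 (plus), Gbp7 at chr3:142530086-142530335 (plus), Irgm1 at chr11:48871421-48871670 (minus), Isg15 at chr4:156200819-156201068 (minus), Isg20 at chr7:78913174-78913395 (plus) and Trim25 at chr11:88999153-88999402 (plus).
Gbp5: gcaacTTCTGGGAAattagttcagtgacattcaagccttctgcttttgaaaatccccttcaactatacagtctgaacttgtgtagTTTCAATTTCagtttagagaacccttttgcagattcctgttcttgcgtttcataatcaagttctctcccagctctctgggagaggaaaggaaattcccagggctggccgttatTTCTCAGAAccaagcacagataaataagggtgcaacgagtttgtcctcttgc
Gbp3: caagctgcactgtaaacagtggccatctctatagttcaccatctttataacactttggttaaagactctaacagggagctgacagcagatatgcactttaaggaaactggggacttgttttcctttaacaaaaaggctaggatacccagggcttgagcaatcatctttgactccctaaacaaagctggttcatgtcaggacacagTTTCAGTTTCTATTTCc
Gbp7: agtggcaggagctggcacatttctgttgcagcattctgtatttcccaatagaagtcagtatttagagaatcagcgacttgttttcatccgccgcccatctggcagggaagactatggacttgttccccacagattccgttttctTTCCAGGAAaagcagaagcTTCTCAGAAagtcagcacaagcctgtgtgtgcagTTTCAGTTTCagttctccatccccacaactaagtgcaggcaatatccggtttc
Irgm1: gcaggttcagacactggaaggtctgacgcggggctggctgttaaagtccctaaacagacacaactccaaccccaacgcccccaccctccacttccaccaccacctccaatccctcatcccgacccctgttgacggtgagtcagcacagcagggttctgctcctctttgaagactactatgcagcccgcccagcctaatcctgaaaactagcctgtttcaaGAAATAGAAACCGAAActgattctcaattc
Isg15: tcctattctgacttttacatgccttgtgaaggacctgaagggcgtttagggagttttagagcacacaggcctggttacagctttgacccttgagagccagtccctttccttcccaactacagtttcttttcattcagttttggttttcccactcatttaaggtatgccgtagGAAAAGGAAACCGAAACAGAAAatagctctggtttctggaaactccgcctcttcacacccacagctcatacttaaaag
Isg20: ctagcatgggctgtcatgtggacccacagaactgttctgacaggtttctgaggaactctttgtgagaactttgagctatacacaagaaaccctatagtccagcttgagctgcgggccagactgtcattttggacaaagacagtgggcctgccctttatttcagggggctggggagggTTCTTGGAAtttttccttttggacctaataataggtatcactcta
Trim25: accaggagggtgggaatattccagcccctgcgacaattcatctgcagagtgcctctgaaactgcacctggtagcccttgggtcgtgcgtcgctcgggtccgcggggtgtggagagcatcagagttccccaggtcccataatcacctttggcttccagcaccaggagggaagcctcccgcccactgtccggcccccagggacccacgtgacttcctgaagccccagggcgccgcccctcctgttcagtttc
Counting back from -1 at the base before the gene, the ISRE-like match of Gbp7 lay at -53 to -44 and that of Gbp5 at -165 to -156. Gbp3 and Irgm1 each held a pair of overlapping ISRE-like matches close to the gene, from -17 to -2 in Gbp3 and from -30 to -15 in Irgm1. Isg15 held 3 overlapping ISRE-like matches from -78 to -57. Gbp5 and Gbp7 held GAS-like matches as well, at -245 to -237 and -52 to -44 in Gbp5 and at -106 to -98 and -87 to -79 in Gbp7. The promoter of Isg20 held a GAS-like match at -45 to -37 and no ISRE-like one, and that of Trim25 held neither. The windows of Ifi35 and Xaf1, both called lower, also held no ISRE-like match, and that of Xaf1 no GAS-like match either.

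All array pairs correlated at 0.966 to 0.993 over all genes, and array medians lay between 3.60 and 3.69. Fed replicate 2 and fasted replicate 7 stood apart by their markers of motile cilia, whose summed linear level was 393 in fasted replicate 7 and 602 in fed replicate 2, against 74.4 to 135 in the other 14 arrays. The sum of 6 epididymis markers was highest in the same arrays, at 58.1 in fasted replicate 7 and 100.2 in fed replicate 2, through Adam7, which reached 4.69 in fasted and 6.16 in fed arrays, while the other 5 reached no more than 3.51 in fasted and 3.65 in fed arrays. Liver markers summed to 17279 in fed replicate 3, against 7757 to 16144 in the other 15 arrays, with 16144 in fed replicate 2 and 15107 in fasted replicate 4. Cyp2e1 and Hp, the brightest of them by mean, varied little, with SDs of 0.13 each in fasted arrays and 0.25 and 0.20 in fed arrays. Alb had SDs of 0.99 and 1.32, so the sum is no plain measure of liver content. Counts that lead the results are also given without fed replicates 2 and 3 and fasted replicate 7, which stood apart in an earlier report on these data.

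Fasting lowered 3 guanylate-binding proteins encoded side by side on chromosome 3 and left most of the antiviral signature without a call. Gbp5, Gbp3, Gbp7, the immunity-related GTPase Iigp1 and Gbp9 were lower in fasted fat, by 1.35-fold to 2.33-fold. In the type I signature Ifi35, Ddx58 and Xaf1 were lower, Isg20 and Trim25 were higher, and the signature's best known markers, among them Isg15, Ifit1, Rsad2, Stat2 and the Oas and Mx genes, did not pass the test. A gene was called where limma's moderated test, fitted over all 22180 genes, gave a Benjamini-Hochberg adjusted p under 0.05. By that rule 10 of 34 members were called (29.4%), against 19.2% of all genes. Of the members 8 were lower, against 10.7% of all genes, and 2 were higher, against 8.49%. The median log2 fold change, fasted over fed, was -0.19 over the 34 members and -0.0042 over all genes. In bulk tissue, fewer cells of a type and less RNA per cell cannot be told apart.

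The branches are set side by side next. Of the 10 GTPases 5 were lower (50%, against 10.7% of all genes), 0 were higher (against 8.49%) and 5 were not called. All 10 log2 fold changes were below 0, against 50.9% of those of all genes, with a median of -0.43. At an unadjusted p under 0.05 limma put 6 lower and 0 higher, and an exact rank sum test with adjustment over all genes put 4 lower and 0 higher. Of the 24 signature genes 3 were lower (12.5%), 2 were higher (8.33%) and 19 were not called. Their log2 fold changes were below 0 in 15 genes (62.5%), with a median of -0.15. The 5 calls in the signature make up 20.8% of it, close to the 19.2% of all genes. At an unadjusted p under 0.05 limma put 9 of the 24 signature genes lower and 5 higher. The exact rank sum test with adjustment put 3 of them lower and 2 higher. The number of signature genes called lower was 7 without fasted replicate 6 and 5 without fed replicate 2. Without fed replicates 2 and 3 and fasted replicate 7 there were 6 lower GTPases, 2 lower signature genes and 2 higher ones. Whether the branches differ in their response was not tested.

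**Figure D1:**
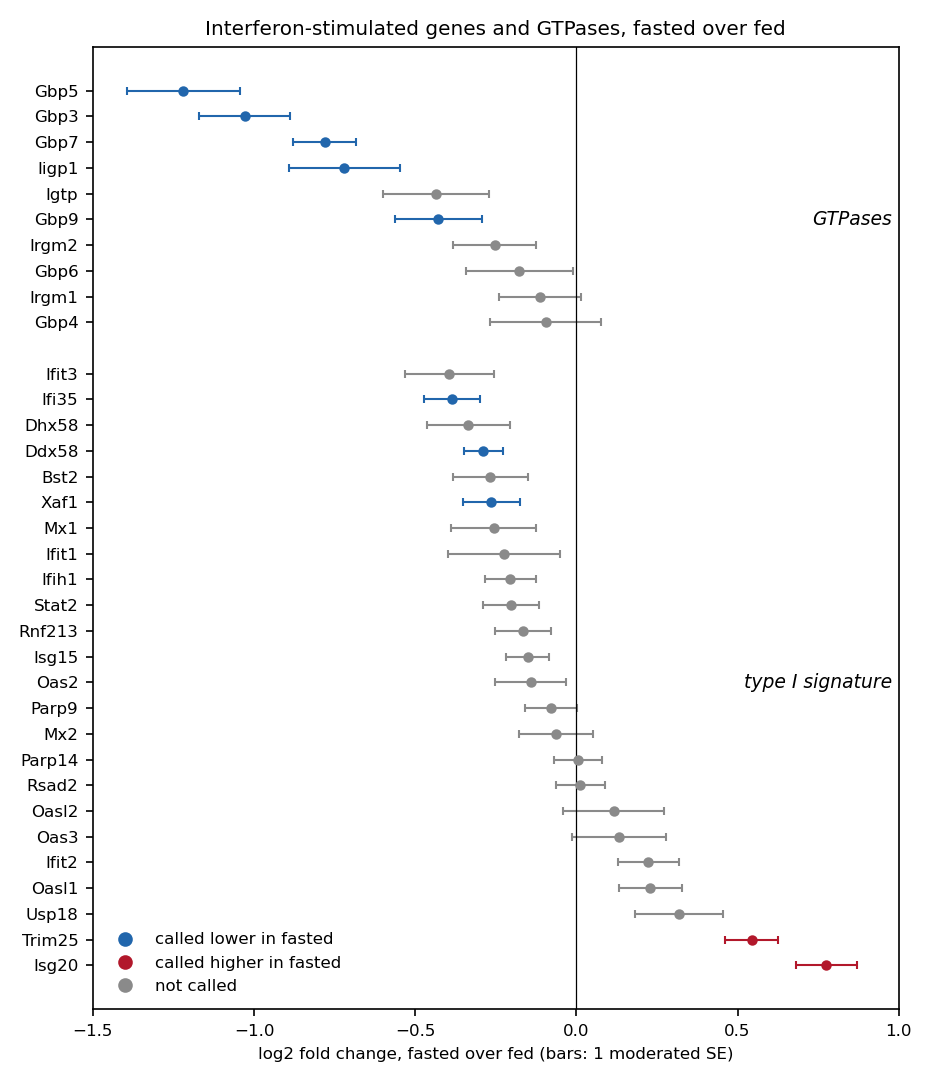
Log2 fold changes, fasted over fed (horizontal axis), of the 34 measured genes, GTPases above and type I signature below, with bars of 1 moderated SE (8 fasted and 8 fed arrays). All 10 GTPases lie left of 0, from -1.22 for Gbp5 to -0.095 for Gbp4, while the signature spreads from -0.39 for Ifit3 to 0.78 for Isg20, with blue for genes called lower, red for genes called higher and grey for the others.

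Guanylate-binding proteins are large GTPases of the dynamin superfamily that assemble on pathogen membranes and help to set off inflammasomes. The 3 members measured on chromosome 3 are neighbours there, Gbp5 at chr3:142496934-142522344, Gbp7 at chr3:142530336-142550151 and Gbp3 at chr3:142560016-142573213, and all 3 were lower in fasted fat, with a median log2 fold change of -1.03. Gbp5, which promotes assembly of the NLRP3 inflammasome, ran from 3.74 to 5.25 on the log2 scale in fasted arrays (median 4.45) and from 5.22 to 6.07 in fed arrays (median 5.77). The highest fasted array, replicate 1, lay just above the lowest fed array, replicate 2, and the groups touched only there. The mean was 4.51 ± 0.46 in fasted fat and 5.73 ± 0.29 in fed fat (SD, n = 8 arrays each) (log2 fold change -1.22, SE 0.17, limma adjusted p = 4.45e-05), 2.33-fold lower in fasted fat.

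Gbp3 ran from 4.56 to 5.54 in fasted arrays (median 4.95) and from 5.56 to 6.28 in fed arrays (median 6.13). No fasted array reached the lowest fed array, although the gap was narrow. Its log2 fold change was -1.03 (SE 0.14, limma adjusted p = 2.89e-05), 2.04-fold lower in fasted fat. Gbp7, known in mice for bringing the oxidase machinery to bacteria-containing vacuoles, ran from 6.92 to 7.60 in fasted arrays (median 7.44) and from 7.90 to 8.41 in fed arrays (median 8.19). Its groups were apart on every array, at -0.78 on the log2 scale (SE 0.097, limma adjusted p = 1.02e-05) or 1.72-fold lower in fasted fat.

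Of the guanylate-binding proteins of chromosome 5, 1 of 3 was called. Gbp9 lay between 6.76 and 7.71 in fasted arrays (median 7.42) and between 7.32 and 8.18 in fed arrays (median 7.85). The groups overlapped, with fasted replicate 7 far below the other fasted arrays. Its log2 fold change of -0.43 (SE 0.14, limma adjusted p = 0.0324) lost its call in 7 of 26 alternatives, the rank sum test and the fits without fasted replicate 6 or 7 or without fed replicate 4, 6, 7 or 8 (adjusted p = 0.0559 to 0.0706). Gbp4 and Gbp6 did not pass, at -0.095 (SE 0.17) and -0.18 (SE 0.17) on the log2 scale. The 3 members on chromosome 5 had a median log2 fold change of -0.18, which is that of Gbp6. Gbp6 was dim, at 3.00 ± 0.39 in fasted and 3.18 ± 0.34 in fed fat (SD, n = 8 arrays each), under the array medians of 3.60 to 3.69. Their neighbour Gbp10, which is not among the 39 genes, was lower at -0.68 (SE 0.16, limma adjusted p = 0.00432), while Gbp8 at -0.38 and Gbp11 at -0.024 were not called. On chromosome 3, Gbp2b was not called at -0.31. These genes are close paralogs, and how far their probes pick up each other's RNA was not tested.

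Immunity-related GTPases divide into effectors such as Iigp1, which load onto parasite vacuoles and break them open, and regulators such as Irgm1, Irgm2 and Igtp, which keep the effectors inactive on the cell's own membranes. Of the 4 measured, Iigp1 was the only effector and the only one called. Whether effectors and regulators differ was not tested. Iigp1 ran from 6.44 to 7.42 in fasted arrays (median 6.95) and from 7.12 to 8.04 in fed arrays (median 7.80). Of the fed arrays 3 lay within the fasted range and 5 above it. The means were 6.92 ± 0.39 in fasted and 7.64 ± 0.37 in fed fat (SD, n = 8 arrays each), a difference of -0.72 on the log2 scale (SE 0.17, limma adjusted p = 0.00502) or 1.65-fold lower in fasted fat.

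The regulators had log2 fold changes of -0.43 for Igtp (SE 0.17, limma adjusted p = 0.0765), -0.25 for Irgm2 (SE 0.13, adjusted p = 0.202) and -0.11 for Irgm1 (SE 0.13, adjusted p = 0.643). Irgm1, which also guides autophagy, ran from 4.82 to 5.52 in fasted arrays (median 5.31) and from 4.94 to 5.83 in fed arrays (median 5.34), so that the groups lay over each other. Igtp was called lower in 5 of the 26 alternatives, among them the fits without fasted replicate 8, without fed replicate 2, and without fed replicates 2 and 3 and fasted replicate 7 (adjusted p = 0.0133 to 0.0442 over the 5).

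**Figure D2:**
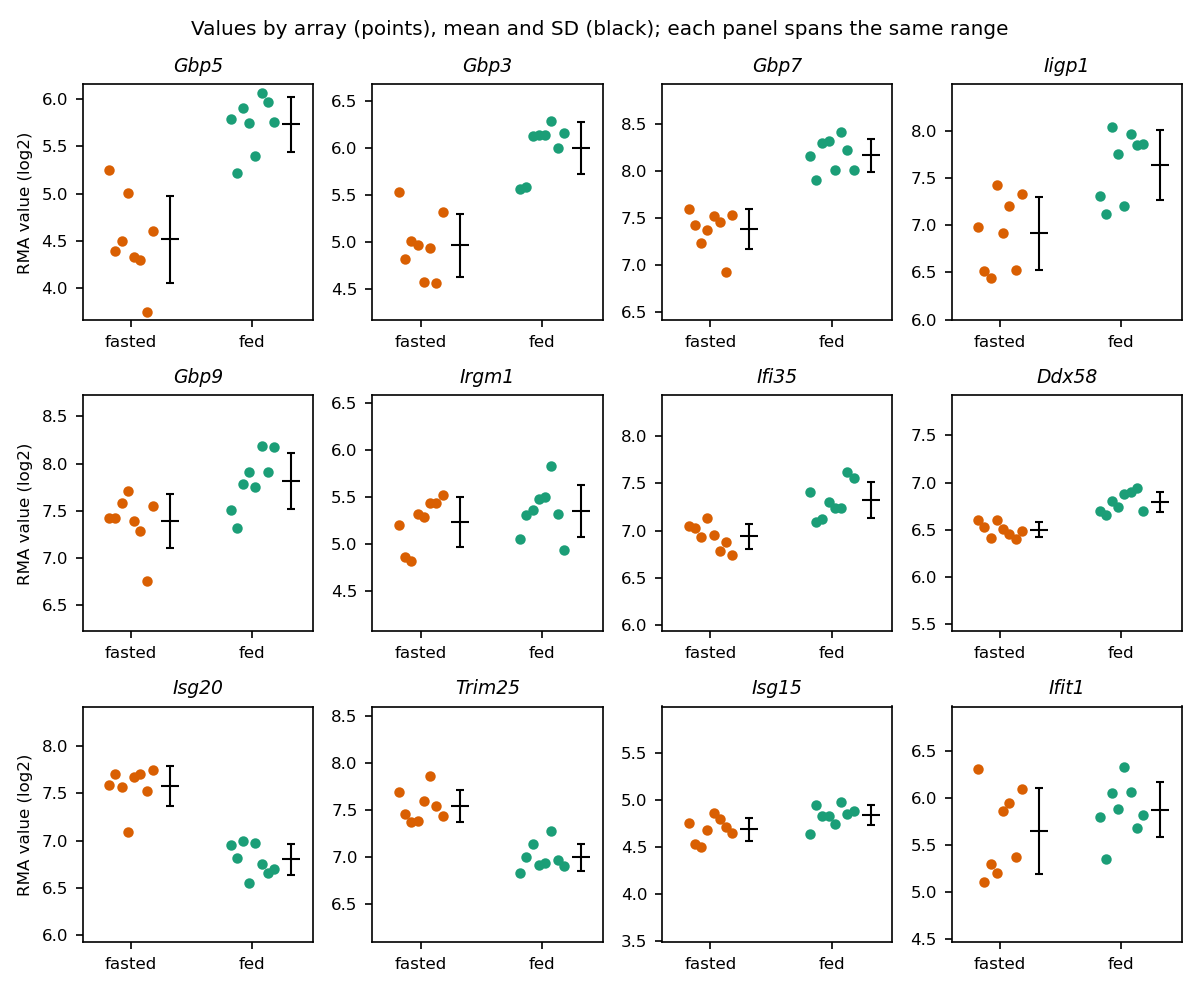
RMA values (log2, vertical axes, all panels spanning the same range) of 12 genes on the 8 fasted arrays (orange, left) and the 8 fed arrays (green, right), with mean and SD in black. Gbp3, Gbp7, Ddx58, Isg20 and Trim25 have groups that do not overlap, Gbp5 overlaps by 1 array of each group, and Irgm1, Isg15 and Ifit1 overlap broadly.

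The 3 signature members that sense viral RNA had log2 fold changes below 0, and 1 of them was called. Ddx58, which encodes the RNA sensor RIG-I, ran from 6.40 to 6.61 in fasted arrays (median 6.50) and from 6.66 to 6.94 in fed arrays (median 6.77). The groups did not overlap, and the change was small, at -0.29 on the log2 scale (SE 0.060, limma adjusted p = 0.00179) or 1.22-fold lower in fasted fat. Ifih1, which encodes the sensor MDA5, and Dhx58, which encodes their partner LGP2, were not called at -0.20 (SE 0.079, adjusted p = 0.0819) and -0.33 (SE 0.13, adjusted p = 0.0786). Each of these 2 genes was called lower in 3 of the 26 alternatives, Dhx58 among them without fasted replicate 6 (adjusted p = 0.0359 to 0.0421 over the 3) and Ifih1 without fed replicate 2 (0.0384 to 0.0495).

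Ifi35, a binding partner of the interferon-induced protein Nmi, lay between 6.74 and 7.14 in fasted arrays (median 6.94) and between 7.09 and 7.62 in fed arrays (median 7.27). Only the ends of the ranges met. Its log2 fold change was -0.39 (SE 0.086, limma adjusted p = 0.00289), but its other probe set gave -0.18 (SE 0.12, adjusted p = 0.350 with all probe sets tested). Xaf1, whose human protein opposes the apoptosis inhibitor XIAP, ran from 5.65 to 6.19 in fasted arrays (median 6.02) and from 6.06 to 6.50 in fed arrays (median 6.26). Its log2 fold change of -0.26 (SE 0.088, limma adjusted p = 0.0426) was close to the threshold. The call was lost in 14 of 26 alternatives (adjusted p = 0.0507 to 0.132), 10 of them fits that left out 1 array (fasted replicate 2, 3, 4, 7 or 8, or fed replicate 3, 4, 6, 7 or 8).

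Isg20 and Trim25 ran the other way. Isg20, an exonuclease that degrades RNA, ran from 7.09 to 7.75 in fasted arrays (median 7.63) and from 6.55 to 7.00 in fed arrays (median 6.78). Every fasted array lay above every fed array, with fasted replicate 4 far below the rest of its group. The means were 7.58 ± 0.21 in fasted and 6.80 ± 0.16 in fed fat (SD, n = 8 arrays each), higher by 0.78 on the log2 scale (SE 0.095, limma adjusted p = 7.97e-06) or 1.71-fold in fasted fat. Trim25, a ubiquitin ligase that activates RIG-I and is also known as an estrogen-responsive gene, ran from 7.37 to 7.86 in fasted arrays (median 7.50) and from 6.84 to 7.28 in fed arrays (median 6.96). Its groups did not overlap either, and the log2 fold change was 0.54 (SE 0.082, limma adjusted p = 7.68e-05) or 1.46-fold higher in fasted fat. So Trim25 was higher while Ddx58, which encodes its target, was lower. The 5 members whose groups did not overlap, Gbp3, Gbp7, Ddx58, Isg20 and Trim25, stand beside 6.48% of all genes.

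Among the members that tag proteins, Isg15, a ubiquitin-like modifier, ran from 4.50 to 4.86 in fasted arrays (median 4.70) and from 4.64 to 4.98 in fed arrays (median 4.84). The groups overlapped and the log2 fold change of -0.15 (SE 0.068, limma adjusted p = 0.142) did not pass. Usp18, which removes Isg15 from proteins and shuts off Ifnar2, was not called at 0.32 (SE 0.14, adjusted p = 0.122; 0.0398 without fasted replicate 4), so the modifier and its protease had log2 fold changes of opposite sign. Stat2, the member that carries the type I signal, ran from 6.38 to 6.99 in fasted arrays (median 6.52) and from 6.66 to 6.94 in fed arrays (median 6.79). Fasted replicate 6 lay above every fed array, and the log2 fold change of -0.20 (SE 0.086, limma adjusted p = 0.119) became a call only without that array (-0.26, adjusted p = 0.0193).

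The Ifit genes, whose products bind the ends of viral RNA, had no call among 3. Ifit3 ran from 3.72 to 4.69 in fasted arrays (median 4.31) and from 4.20 to 5.09 in fed arrays (median 4.66), overlapping over much of that range. Its log2 fold change of -0.39 (SE 0.14, limma adjusted p = 0.0530) missed the threshold narrowly, and it was called in 7 of 26 alternatives, among them the fits without fasted replicate 6 or 8 or fed replicate 2 or 6 (adjusted p = 0.0205 to 0.0487 over the 7). Ifit1 ran from 5.11 to 6.31 in fasted arrays (median 5.62) and from 5.36 to 6.33 in fed arrays (median 5.85), so the fasted arrays alone spanned more than the difference of the means, -0.22 (SE 0.17, adjusted p = 0.464). Ifit2 stood at 0.22 (SE 0.094, adjusted p = 0.116).

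The 4 measured genes of the Oas family, whose products make the oligoadenylates that activate RNase L or resemble such enzymes, were not called, with log2 fold changes from -0.14 for Oas2 to 0.23 for Oasl1. Oasl1 was called higher only without fasted replicate 3 (adjusted p = 0.0341). Rsad2, the gene of viperin and a sensitive marker of type I interferon, ran from 5.51 to 5.93 in fasted arrays (median 5.65) and from 5.38 to 5.89 in fed arrays (median 5.67). Its groups lay over each other, at 0.013 (SE 0.077, limma adjusted p = 0.948). Bst2, the gene of the virus-tethering protein tetherin, was not called at -0.27, nor were the dynamin-like GTPases Mx1 at -0.26 and Mx2 at -0.064. C57BL/6 mice carry disrupted Mx alleles, and both genes were dim on these arrays, with Mx1 at 2.60 ± 0.32 in fasted and 2.85 ± 0.24 in fed fat (SD, n = 8 arrays each).

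Rnf213 and Parp14 are given for their bright probe sets, and neither was called. Rnf213, a giant ubiquitin ligase with an ATPase motor, ran from 7.46 to 8.16 in fasted arrays (median 7.67) and from 7.69 to 7.98 in fed arrays (median 7.92). Its log2 fold change of -0.17 (SE 0.086, limma adjusted p = 0.219) became a call only without fasted replicate 6 (-0.23, adjusted p = 0.0336). Parp14, an ADP-ribosyltransferase, ran from 7.65 to 8.05 in fasted arrays (median 7.81) and from 7.62 to 7.98 in fed arrays (median 7.79), at 0.0060 on the log2 scale (SE 0.075, adjusted p = 0.976). Parp9, of the same enzyme family, stood at -0.080 and was not called.

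Within each group the members varied from array to array, with correlations that moved when single arrays were left out. The median SD over arrays was 0.32 for the GTPases, 0.22 for the signature and 0.20 for all genes in fasted fat, and 0.29, 0.17 and 0.19 in fed fat. The SD was larger in fasted than in fed arrays in 25 of 34 members (73.5%), and in 56.1% of all genes. Over the 8 arrays of a group, the median Pearson correlation between 2 GTPases was 0.43 in fasted and 0.69 in fed fat, where all 45 pairs were positive. Without fasted replicate 7 it was 0.27 in fasted arrays, and without fed replicate 2 it was 0.53 in fed arrays. For pairs of signature genes it was 0.33 in fasted and 0.22 in fed fat (0.34 without fasted replicate 7 and 0.18 without fed replicate 2), so that without fasted replicate 7 it was above that of the GTPases in fasted arrays. For pairs of 1 gene from each branch it was 0.25 in fasted and 0.38 in fed fat (0.23 without fasted replicate 7 and 0.20 without fed replicate 2), and over all gene pairs the median was 0. These correlations are a description, since the pairs share the same 8 arrays and with them any difference in cell content or RNA.

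The arrays at the ends of the ranges were as follows. Among fasted arrays, replicate 6 was the highest in 10 of 24 signature genes and in 0 of 10 GTPases, though its median deviation from the group mean was above 0 in both (0.20 in the signature and 0.16 in the GTPases). Fasted replicate 7 was the lowest in 5 of 10 GTPases and 6 of 24 signature genes, and fasted replicate 8 the highest in 4 of each. In the signature, fasted replicate 3 was the lowest in 7 genes and fasted replicate 2 in 6, and fasted replicate 1 was the highest in 5. Median deviations in the signature were -0.17 for fasted replicate 3, -0.16 for fasted replicate 2 and -0.056 for fasted replicate 7. Among fed arrays, replicate 2 was the lowest in 7 of 10 GTPases and 12 of 24 signature genes, and replicate 6 the highest in 6 of 10 GTPases. Fasted replicate 7 and fed replicate 2 were also the arrays with raised markers of motile cilia. The number of lower GTPases, 5 with all arrays, was 4 without fasted replicate 7 and 6 without fed replicate 2. Without these 2 arrays and fed replicate 3 it was 6. Whether the raised markers and the low values of these arrays are linked was not tested.

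**Figure D3:**
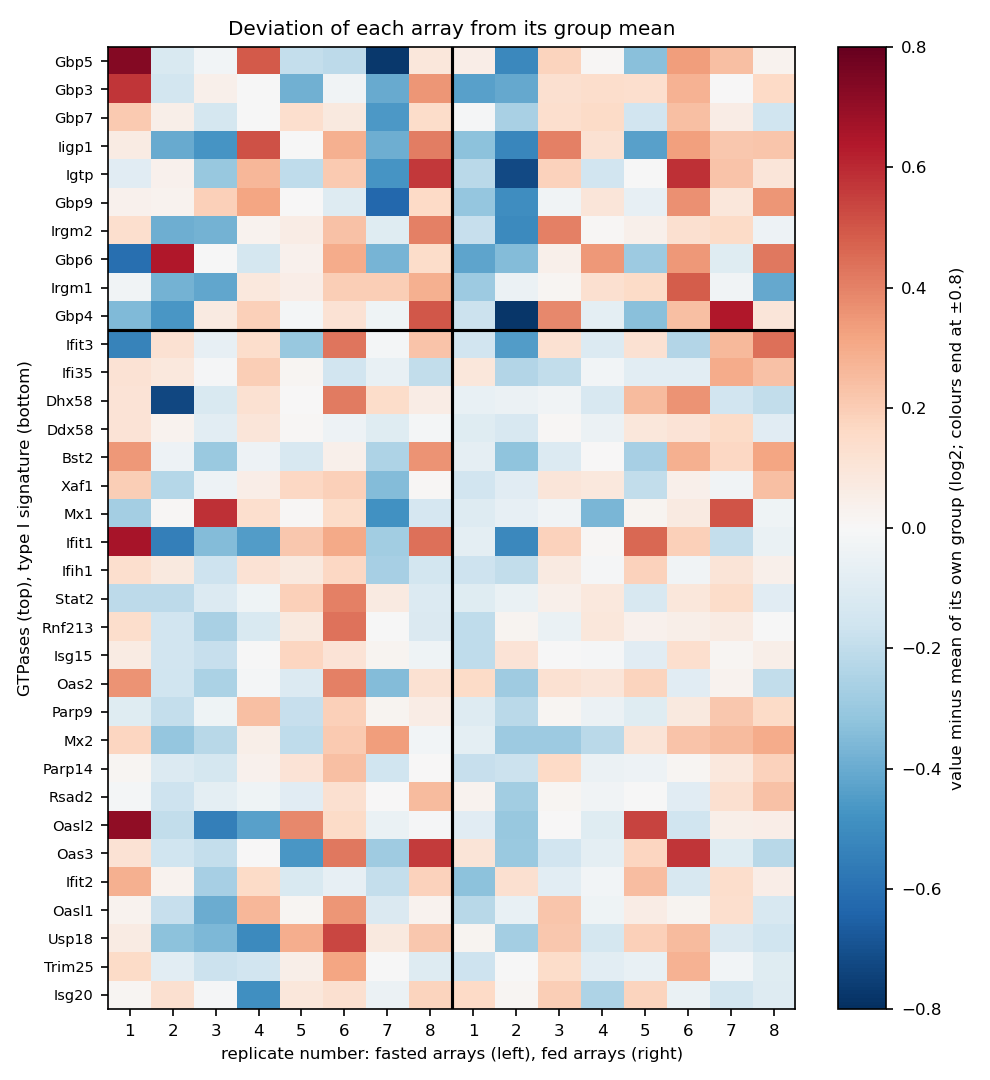
Deviation of each array from the mean of its own group (colour, log2, ending at 0.8 on either side), with genes down the page (GTPases above the line, type I signature below) and fasted replicates 1 to 8 on the left, fed replicates 1 to 8 on the right. Fed replicate 2 is blue in most rows and fasted replicate 6 is red in most rows of the signature, while fasted replicate 7 is blue chiefly among the GTPases.

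Upstream of these genes, Ifnb1 and Ifng were dim and the interferon receptors were not called. Of 19 interferon ligands measured, 1 was called, the keratinocyte interferon Ifnk at 0.34 (SE 0.12, limma adjusted p = 0.0436), a call lost in 16 of 26 alternatives (adjusted p = 0.0505 to 0.102), 12 of them fits without 1 array (fasted replicate 1, 5, 6, 7 or 8, or any fed replicate but 2). Ifnb1 averaged 2.25 ± 0.084 in fasted and 2.27 ± 0.16 in fed fat, and Ifng 2.41 ± 0.26 in fasted and 2.41 ± 0.099 in fed fat (SD, n = 8 arrays each), all well under the array medians of 3.60 to 3.69. At such values a change in a rare transcript may not be detectable. Ifna1, Ifna4, Ifna7 and Ifnl2, named after their values were seen, averaged above the array medians, which are over all 41345 probe sets. They were not called either. By mean among the 22180 genes, Ifna7 stood at percentile 49.6, Ifnl2 at 51.2, Ifna1 at 51.6 and Ifna4 at 63.7. Ifna4 averaged 5.58 ± 0.17 in fasted and 5.56 ± 0.32 in fed fat (SD, n = 8 arrays each). How far probes of the Ifna genes pick up each other's RNA was not tested. The type I receptor genes Ifnar1 and Ifnar2 had log2 fold changes of -0.15 (SE 0.063, adjusted p = 0.117) and -0.076 (SE 0.068, adjusted p = 0.543). The gamma receptor genes Ifngr1 and Ifngr2 stood at 0.073 (SE 0.073, adjusted p = 0.591) and -0.088 (SE 0.081, adjusted p = 0.551). With limma 0 of 6 receptor genes were called, against 1 lower and 0 higher at an unadjusted p under 0.05 and 0 by the rank sum test.

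Of the 4 measured kinases and transducers limma called 0, with 2 lower and 0 higher at an unadjusted p under 0.05 and 0 by the rank sum test, and Irf9, the DNA-binding partner of Stat2, stood at -0.23 (SE 0.099, limma adjusted p = 0.131, or 0.0459 without fasted replicate 6). Of 7 negative regulators, the phosphatase genes Ptpn6 at -0.48 (SE 0.088, adjusted p = 0.000568) and Ptpn11 at -0.39 (SE 0.087, adjusted p = 0.00296) were lower, and Ptpn2, whose product removes phosphate from Jak kinases, was higher at 0.37 (SE 0.074, adjusted p = 0.00119).

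Of the 6 measured interferon regulatory factors, Irf4 was higher by 3.06 on the log2 scale (SE 0.26, limma adjusted p = 1.21e-07), with 7.46 to 9.76 in fasted and 5.16 to 5.89 in fed arrays. Irf8, a factor of myeloid cells, was lower at -0.32 (SE 0.099, adjusted p = 0.0261), a call lost in 4 of 26 alternatives, the fits without fed replicate 1, fed replicate 6 or fed replicates 2 and 3 and fasted replicate 7 and the one on its lowest probe set (adjusted p = 0.0511 to 0.663). Irf1, which relays interferon gamma to the guanylate-binding proteins, was not called at -0.24 (SE 0.097, adjusted p = 0.0942), and neither was Irf7, which amplifies type I interferon, at -0.23 (SE 0.13, adjusted p = 0.256). Irf1 was called lower in 2 alternatives, without fasted replicate 4 and with the filter on dim genes (adjusted p = 0.0411 and 0.0483).

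Of 13 pattern sensors and adaptors measured, Tlr4, the receptor gene for lipopolysaccharide, and Tlr7, that for single-stranded RNA, were higher, each at 0.48 (SE 0.063, adjusted p = 1.90e-05 for Tlr4, and SE 0.12, adjusted p = 0.00961 for Tlr7, limma). The third called, Tlr9, which senses bacterial DNA, was lower at -0.38 (SE 0.12, adjusted p = 0.0369), a call lost in 12 of 26 alternatives (adjusted p = 0.0537 to 0.0912), 10 of them fits without 1 array (fasted replicate 3, 4, 5, 7 or 8, or fed replicate 1, 3, 4, 6 or 8).

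A wider list of 51 further interferon-stimulated genes, 47 of them measured, held 14 lower genes and 1 higher gene, beside 10.7% lower and 8.49% higher among all genes, with a median log2 fold change of -0.13. Cd274, the gene of the immune checkpoint ligand PD-L1, ran from 5.42 to 5.96 in fasted arrays (median 5.68) and from 6.37 to 7.15 in fed arrays (median 6.81). Its groups were far apart, at -1.10 (SE 0.12, limma adjusted p = 2.03e-06) or 2.14-fold lower in fasted fat. Ifi27, a small mitochondrial protein gene, was lower at -0.58 (SE 0.088, adjusted p = 8.22e-05), Nlrc5, the activator of class I antigen presentation genes, at -0.58 (SE 0.15, adjusted p = 0.0108) and Herc6, the mouse ligase that attaches Isg15, at -0.48 (SE 0.096, adjusted p = 0.00113). Psmb9, an immunoproteasome subunit, was lower at -0.31 (SE 0.11, adjusted p = 0.0490), a call lost in 18 of 26 alternatives, 12 of them fits without 1 array (any of fasted replicates 1 and 3 to 7 or fed replicates 2, 3 and 5 to 8; adjusted p up to 0.205). The 1 higher gene, named after its value was seen, was Helz2, a helicase, at 0.40 (SE 0.11, adjusted p = 0.0171). Among 10 further genes of the guanylate-binding and immunity-related GTPase families measured, 2 were lower, Gbp10 and the quasi-GTPase gene Irgq at -0.31 (SE 0.089, adjusted p = 0.0182). The 2 calls make up 20% of the list, against 10.7% lower and 19.2% called in either direction among all genes. At an unadjusted p under 0.05 limma put 4 lower and 0 higher, and the rank sum test put 2 lower and 0 higher. Of these 10 genes 0 were called higher. Whether each of them, Irgq included, responds to interferon was not tested.

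**Figure D4:**
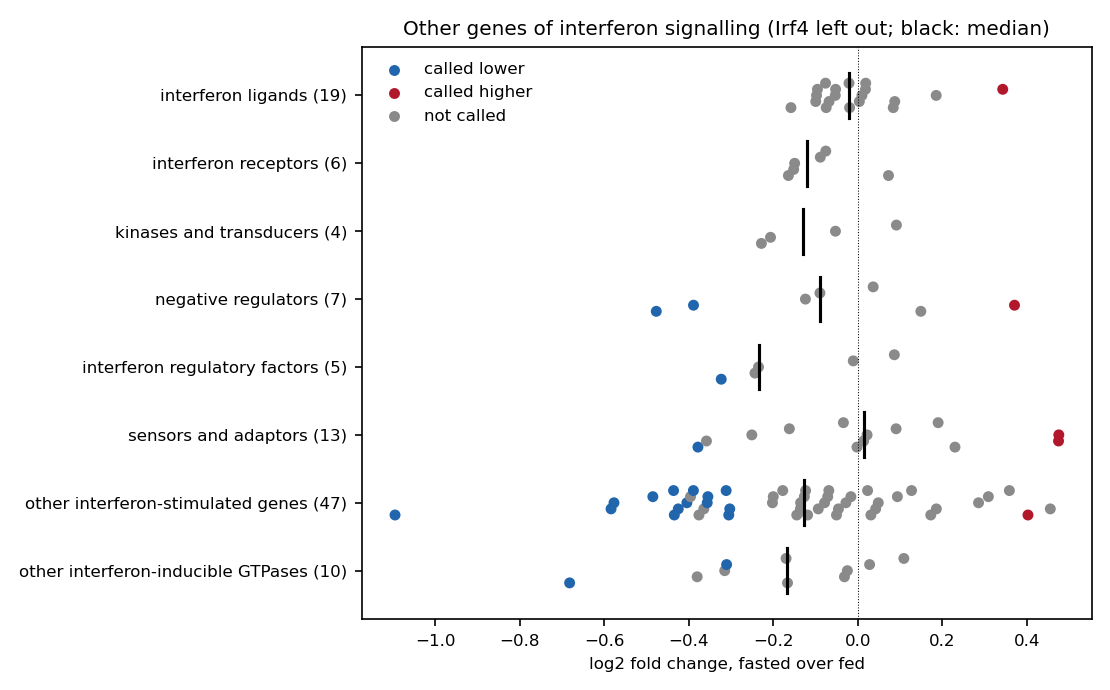
Log2 fold changes, fasted over fed (horizontal axis), of other genes of interferon signalling by list, with the number of genes plotted in brackets, 1 point per gene and a black bar at the list's median. The list labelled other interferon-inducible GTPases holds further genes of the GTPase families, whose response to interferon was not tested. Ligands, receptors and transducers sit close to 0, while the list of other interferon-stimulated genes reaches down to -1.10 for Cd274; Irf4, at 3.06, is left out of the plot and of its list's median there.

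Markers of the cells that could carry these transcripts moved in both directions. Of 7 adipocyte markers, Lep at -1.93 (SE 0.31, limma adjusted p = 0.000131) and Plin1 at -0.84 (SE 0.083, adjusted p = 6.95e-07) were lower and Cidec was higher at 0.25 (SE 0.058, adjusted p = 0.00470), and their summed linear level, set mostly by the brightest genes, was 16423 to 17728 in fasted and 16416 to 19686 in fed arrays. Of 10 macrophage markers 3 were higher, Cd68 at 0.88, Cd163 at 0.73 and C1qb at 0.30, and Mrc1 was lower at -0.23 (not by the rank sum test), and their summed linear level was 5019 to 7785 in fasted and 4753 to 5761 in fed arrays, highest in fasted replicate 1. Of 6 dendritic cell markers Itgax was lower at -0.72 and Zbtb46 higher at 0.43, with sums of 126 to 157 in fasted and 125 to 145 in fed arrays. Of 9 markers of T and NK cells, the cells that make interferon gamma, Ncr1 was lower at -0.58 (not by the rank sum test), with sums of 122 to 176 in fasted and 136 to 220 in fed arrays. Of 10 endothelial markers 4 were higher, Eng at 0.76, Sox17 at 0.60, Pecam1 at 0.39 and Tek at 0.22 (3 of them by the rank sum test), with sums of 4832 to 5983 in fasted and 3831 to 5120 in fed arrays. Of 5 B cell and 6 neutrophil markers limma called 0, with 0 also at an unadjusted p under 0.05 and by the rank sum test. B cell markers summed to 47.5 to 91.1 in fasted and 43.6 to 105.9 in fed arrays, and neutrophil markers to 49.8 to 84.0 in fasted and 50.8 to 62.8 in fed arrays. Of 12 liver markers Cyp2e1 was higher at 0.49 and Hp lower at -0.29. The part of these shifts in the changes of the GTPases and the signature was not tested.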

How the data were processed

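The deposited values are log2 signals per probe set that the authors made with RMA, per the submitters' processing notes; its version, and whether probe sets were filtered, is not given in the sources used here. Values from 0.994 to 13.2 fit a log2 scale. Of 41345 probe sets, 25335 were in the platform annotation, where 23521 carried a single symbol and 1814 more than 1. Probe sets with 1 symbol were kept and, where a gene had several, the one with the highest mean over 16 arrays, which left 22180 genes.

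The test of fasted against fed arrays was that of limma (version 3.58.1, R 4.3.3), with lmFit on group and default eBayes, over all 22180 genes without further normalization or filtering, and each log2 fold change is given with its moderated standard error. Calls are Benjamini-Hochberg adjusted p-values below 0.05. The members, the lists of other interferon genes and cell markers, and the 3 arrays left out together were chosen with earlier results of these data known. Values are given for called members, the 4 largest changes and 2 highest means of each branch and a short panel, and of each list of other interferon genes for all called genes up to 6 (otherwise the 4 largest) and a panel; called cell markers and further genes were named after their values were seen. Of 125 other interferon genes 112 were measured. Lists are described by counts and medians, with no set test. Summed marker levels are sums of linear RMA values.

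Scan dates or batches were not used here. Promoters came from RefSeq (GRCm38.p6) and were matched by symbol. There were 26 alternatives: 16 that left out 1 array each, 1 without the 3 arrays, and array medians subtracted, cyclic loess, a filter on dim genes, array weights, eBayes with trend and robust settings, a replicate block, the lowest probe set of a gene, all probe sets and an exact rank sum test. Figures were drawn with matplotlib 3.10.9.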

Additional observations from a re-analysis of the deposited data

Results flagged for a closer look

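In 118 groups of 8 arrays (59 genes, fasted and fed) the highest or lowest array was compared with the rest of its group by Dixon's gap ratio at its critical value. An array stood apart in 7 of the 118 groups, a share near the 1 in 20 or so that chance gives. Among the members, Isg20 was lowest in fasted replicate 4 at 7.09, with the other fasted arrays between 7.53 and 7.75. Gbp9 was lowest in fasted replicate 7 at 6.76, with the others between 7.28 and 7.71. Dhx58 was lowest in fasted replicate 2 at 3.81, with the others between 4.42 and 4.95. Oasl2 was highest in fed replicate 5 at 7.35, with the others between 6.50 and 6.86.

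Among the other interferon genes, Nlrc5 was lowest in fasted replicate 2 at 3.96, with the others between 4.88 and 5.28. Irf4 was lowest in fed replicate 2 at 5.16, with the others between 5.64 and 5.89. Irf7 was highest in fed replicate 3 at 6.95, with the others between 6.23 and 6.50.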

How the results depend on the processing

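Over the 34 members and 26 alternatives, 820 of 879 values kept their sign and their side of the threshold, 23 gained a call, 22 lost one and 14 changed sign without being called. The number of signature genes called lower moved from 3 to 6 with the filter on dim genes and 6 with array weights, and lay between 2 and 7 when 1 array was left out. Leaving out 1 array gave 4 to 6 lower GTPases and 0 higher ones, 2 to 3 higher signature genes, 11 to 15 lower genes among the further interferon-stimulated genes and 2 to 3 among the further GTPases. Deviations from the group means correlated at -0.22 to 0.22 between samples with the same replicate number. Only fasted replicate 5 was closest to the fed sample of its own number. Such correlations cannot show whether samples were paired by design. With the replicate block, limma called 3829 genes in place of 4251, with 5 lower GTPases, 2 lower and 2 higher signature genes.

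The uncalled genes Rsad2, Parp14, Ifnb1 and Ifng changed sign, and the cause was not tested. Rsad2 went to -0.012 with array medians subtracted, -0.0041 with array weights, -0.015 with the rank sum test and -0.032 without fed replicates 2 and 3 and fasted replicate 7, and ran from -0.027 to 0.046 without 1 array. Parp14 went to -0.018 with array medians subtracted and ran from -0.029 to 0.032 without 1 array. Ifnb1 went to 0.026 without the 3 arrays and ran from -0.047 to 0.028 without 1 array. Ifng went to -0.020 with array medians subtracted, -0.012 with cyclic loess, -0.029 with array weights, -0.030 with the rank sum test and -0.028 without the 3 arrays, and ran from -0.053 to 0.057 without 1 array. The median of all genes went no lower than -0.028 in any alternative. For dim genes such as Mx1, Gbp6, Ifnb1 and Ifng, background signal limits what a change can show.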
